A study of Homo sapiens with 20 samples.

Results

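Transcripts of 10 secreted matrix glycoproteins and proteoglycans were followed through 20 established human biliary tract cancer cell lines. The members were FN1, THBS1, THBS2, SPARC, POSTN, TNC, FBN1, FBLN1, VCAN and DCN. They were chosen by symbol, as the rows of the count table whose RefSeq identifier maps to 1 of these genes, and all 10 of 10 were found among 24222 entries. Biliary tract cancers arise from the lining of the bile ducts, the gallbladder and the ampulla of Vater. RNA of each line was sequenced once, so each line counted as 1 replicate and the spread given is that among lines.

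The site labels give 7 gallbladder, 5 extrahepatic bile duct, 4 intrahepatic bile duct and 3 ampullary lines. OZ, whose label names both bile duct sites, took no part in comparisons of sites. The gallbladder lines were TGBC2TKB, TGBC14TKB, SNU-308, NOZ, G415, OCUG-1 and Mz-ChA-2, and the extrahepatic lines were EGI-1, Sk-ChA-1, SNU-1196, SNU-245 and TFK-1. The intrahepatic lines were HuCCT1, HuH28, SNU-1079 and TKKK, and the ampullary lines SNU-478, SNU-869 and TGBC18TKB. The origin label reads primary for 13 lines and metastatic for 7, of which 6 were taken from ascites and 1 from the liver. The metastatic lines were Sk-ChA-1, OZ, HuCCT1, G415, NOZ, Mz-ChA-2 and OCUG-1. No treatment is given, and every line grew in DMEM with 10% FBS. Total counts ran from 10.47 to 15.41 M (M for mega) per line. Levels are counts per M counts (CPM) on TMM-scaled library sizes, TMM being edgeR's trimmed mean of log ratios. A count of 0 allows up to 3 counts, or 0.206 to 0.294 CPM by line on this scale, and these floors cover counting error only.

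The extracellular matrix is a network of secreted proteins that holds cells in place and presents growth factors to them. Fibronectin and fibrillin build fibrils that cells grip through integrins, while thrombospondins, SPARC, periostin and tenascin-C, the matricellular proteins, mainly modulate how cells attach, move and signal. Versican and decorin are proteoglycans, whose cores carry glycosaminoglycan chains. In bile duct cancers much of this matrix is usually ascribed to fibroblasts of the stroma.

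The stretches just before the transcription start of 4 members are shown because the results below turn on these genes: FN1 led by level, THBS2 and POSTN were both concentrated in the line HuH28, and SPARC in another, TGBC2TKB. They are RefSeq sequences of build GRCh38.p14, read 5′ to 3′ on the strand of the gene, which is the minus strand for all 4, and each ends at the last base before the start. Capitals mark matches on either strand to the searched motifs. Those were the cAMP response element TGACGTCA, the TATA box TATAAA, the CCAAT box CCAAT, the GC box GGGCGG, the AP-1 site TGANTCA, the TEAD site GGAATG and the E-box CAGGTG.
FN1 (chr2:215436069-215436258): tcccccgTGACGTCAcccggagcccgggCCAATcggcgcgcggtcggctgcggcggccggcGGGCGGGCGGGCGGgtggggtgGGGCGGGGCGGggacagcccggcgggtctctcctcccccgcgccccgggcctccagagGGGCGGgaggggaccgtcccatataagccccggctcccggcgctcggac
THBS2 (chr6:169253847-169253966): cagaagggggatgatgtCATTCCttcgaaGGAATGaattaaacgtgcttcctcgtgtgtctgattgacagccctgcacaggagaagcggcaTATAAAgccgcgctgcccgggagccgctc
POSTN (chr13:37598769-37598888): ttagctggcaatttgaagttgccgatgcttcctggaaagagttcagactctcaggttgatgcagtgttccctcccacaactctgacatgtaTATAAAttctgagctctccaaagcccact
SPARC (chr5:151686916-151687035): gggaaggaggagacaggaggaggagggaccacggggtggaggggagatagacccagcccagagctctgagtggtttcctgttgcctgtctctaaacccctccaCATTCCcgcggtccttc

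Windows of 250 bases before the start were searched for 9 members; DCN had no entry. THBS2 and POSTN each held TATAAA with its first letter 29 bases before the start, at the same spacing, and no other member held the motif in its window. Of all 35116 windows, 10.7% held it. FN1 held 6 GC boxes, some of them overlapping, a CCAAT box at 162 bases and the cAMP response element at 183 bases before the start. A GC box was found in 5 of the 9 windows, those of FN1, THBS1, TNC, FBLN1 and VCAN, against 42.6% of all windows. The cAMP response element was found in FN1 alone, against 1.65%. A CCAAT box stood in FN1 and THBS1, against 32.0% of windows, and an AP-1 site in POSTN, against 6.57%. GGAATG or its complement was found in 4 windows, those of THBS1, THBS2, SPARC and FBN1, against 11.9%, and the E-box letters in none of the 9, against 17.5%. These are matches of letters and describe the sequences only.

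The 10 transcripts were not spread evenly over the lines. In HuH28, an intrahepatic line, they made up 2.14% of all counts, in OCUG-1 1.38%, in TGBC2TKB 1.13%, in HuCCT1 0.961% and in Mz-ChA-2 0.8%. The share was 0.384% in SNU-1079 and lay between 0.00216% in SNU-245 and 0.122% in SNU-308 in the other 14 lines. HuH28 and TGBC2TKB were the lines with all 10 members at 1 CPM or more, and SNU-1196 had 3 members there. HuH28 held the highest level of 7 members, FN1, THBS2, POSTN, FBN1, FBLN1, VCAN and DCN. Among genes at 1 CPM or more in at least 3 lines, which leaves out POSTN, 6 of 9 members and 8.07% of all genes peaked in that line. SPARC and TNC peaked in TGBC2TKB, a gallbladder line, and THBS1 in HuCCT1, an intrahepatic line from ascites. With unscaled library sizes 5 members, POSTN among them, peaked in HuH28, against 5.2% of genes, because OCUG-1 then led for FN1 and TGBC14TKB for FBLN1. The scaling factor of HuH28, 0.82, was the lowest of the 20.

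**Figure D1:**
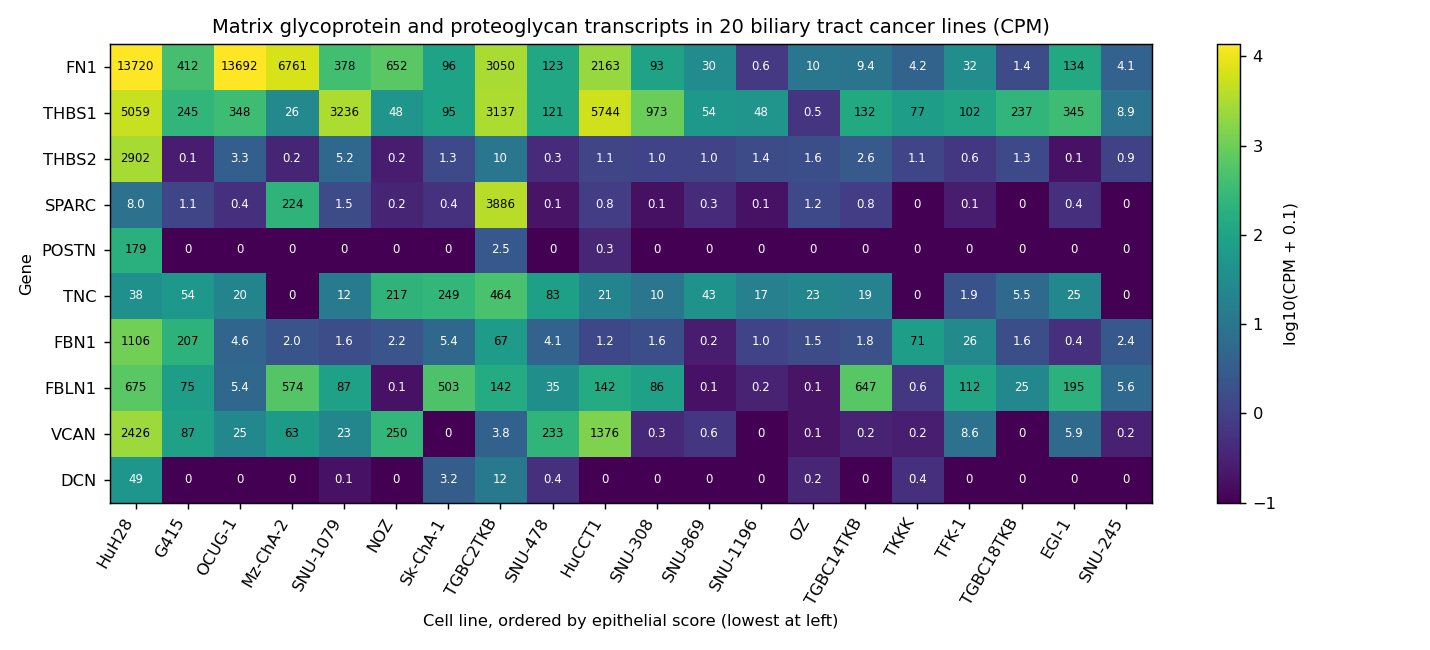
Level of each member in each line, printed as CPM, with the colour giving log10(CPM + 0.1); lines run from the lowest epithelial score at left to the highest at right. HuH28 at the far left is bright in most rows, POSTN and DCN are dark nearly throughout, and SPARC is bright in TGBC2TKB and Mz-ChA-2.

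Among the fibril builders, FN1 encodes fibronectin, which assembles into fibrils under the pull of integrins. It was the most abundant member per unit of length in HuH28, at 1541 CPM per kb of transcript. In CPM, FN1 reached 13720 in HuH28, 2163 in HuCCT1, 378 in SNU-1079 and 4.22 in TKKK, the 4 intrahepatic lines. The 7 gallbladder lines ran from 9.38 in TGBC14TKB over a median of 652 to 13692 in OCUG-1. HuH28 and OCUG-1 could not be told apart by counting error, with 95% Poisson intervals of 13653 to 13787 and 13628 to 13756 CPM. The extrahepatic lines read 134 in EGI-1, 96.0 in Sk-ChA-1, 32.3 in TFK-1, 4.11 in SNU-245 and 0.608 in SNU-1196, and the ampullary lines 123 in SNU-478, 30.1 in SNU-869 and 1.44 in TGBC18TKB. OZ had 10.2 CPM. Each site with more than 1 line held lines low in FN1, and no extrahepatic or ampullary line passed 134 CPM.

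FBN1 encodes fibrillin-1, the backbone of the microfibrils that carry elastin and latent TGF-beta. HuH28 had 1106 CPM, TKKK 70.7, SNU-1079 1.56 and HuCCT1 1.19 among intrahepatic lines. Gallbladder lines ran from 1.58 in SNU-308 over a median of 2.20 to 207 in G415, with TGBC2TKB at 67.1. The highest extrahepatic line was TFK-1 at 25.6 CPM, and the 3 ampullary lines lay between 0.158 and 4.06. FBN1 was thus high in HuH28 and G415 and above 10 CPM in 5 lines, of which TKKK was among the lowest of the lines for FN1. HuH28 held 73.3% of the FBN1 CPM summed over the lines.

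FBLN1 encodes fibulin-1, which binds fibronectin and basement membrane proteins. It was the most evenly shared member at its top: HuH28 had 675 CPM, TGBC14TKB 647, Mz-ChA-2 574 and Sk-ChA-1 503, and HuH28 held 20.4% of the sum. The lower end was sharp, with 5 lines under 1 CPM: TKKK at 0.579, SNU-1196 at 0.228, OZ at 0.0831, SNU-869 at 0.0791 and NOZ at 0.0786. The next lines up were OCUG-1 at 5.44 and SNU-245 at 5.58. OCUG-1 was therefore among the highest of the lines in FN1 and among the lowest of those with FBLN1 above 1 CPM, while TGBC14TKB showed the opposite order with FN1 at 9.38.

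**Figure D2:**
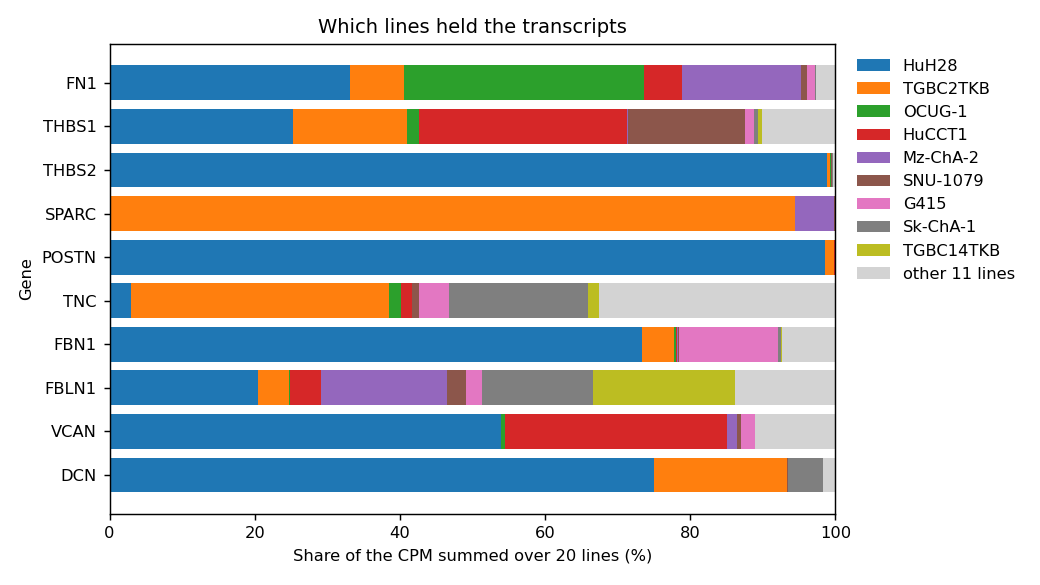
Share of each gene's CPM, summed over 20 lines, that each of 9 named lines held, with the other 11 lines in grey. THBS2 and POSTN are nearly all HuH28 and SPARC is nearly all TGBC2TKB, while FBLN1 and TNC are divided among many lines.

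Of the matricellular genes, THBS1 encodes thrombospondin-1, an inhibitor of vessel growth and an activator of latent TGF-beta. It was the broadest member, at 10 CPM or more in 18 lines with a median of 127 CPM. In the intrahepatic lines it stood at 5744 CPM in HuCCT1, 5059 in HuH28, 3236 in SNU-1079 and 76.8 in TKKK. Gallbladder lines ran from 26.1 in Mz-ChA-2 over a median of 245 to 3137 in TGBC2TKB. The extrahepatic lines had 345 CPM in EGI-1, 102 in TFK-1, 94.6 in Sk-ChA-1, 48.2 in SNU-1196 and 8.91 in SNU-245, and the ampullary lines 237, 121 and 54.4. OZ was lowest, at 0.498 CPM. Of the 4 lines above 1000 CPM, 3 were intrahepatic and 1 was from the gallbladder, and Mz-ChA-2 with its high FN1 was not among them.

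THBS2, the close relative that encodes thrombospondin-2, had another pattern. HuH28 had 2902 CPM and the next line, TGBC2TKB, 10.3, a 282-fold step. SNU-1079 followed at 5.18, OCUG-1 at 3.26 and TGBC14TKB at 2.59, and all other lines were under 2 CPM down to 0.0797 in EGI-1. HuCCT1, the line highest in THBS1, had 1.11 CPM of THBS2. HuH28 held 98.9% of all THBS2.

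POSTN encodes periostin, which links collagen and integrins and is best known from fibroblasts. It had 179 CPM in HuH28 (95% Poisson interval 171 to 186), 2.47 in TGBC2TKB and 0.256, or 3 counts, in HuCCT1. The other 17 lines had no count. HuH28 was 72.4-fold above TGBC2TKB.

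SPARC encodes a collagen-binding glycoprotein, also called osteonectin. It was at 3886 CPM in TGBC2TKB and 224 in Mz-ChA-2, a 17.4-fold step, and these lines held 99.6% of the sum. HuH28 followed with 8.05 CPM, then SNU-1079 at 1.48, OZ at 1.25 and G415 at 1.09. The other 14 lines were under 1 CPM, and SNU-245, TKKK and TGBC18TKB had no count. HuH28, the highest line for most members, thus carried little SPARC, and per kb of transcript SPARC was its lowest member at 2.17 CPM. In TGBC2TKB SPARC was the highest member per kb, at 1050 CPM against 403 for THBS1 and 343 for FN1.

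TNC encodes tenascin-C, a large hexameric protein of wounds and tumour stroma. It was highest in TGBC2TKB at 464 CPM, Sk-ChA-1 at 249 and NOZ at 217, and 15 lines had 10 CPM or more. Mz-ChA-2, SNU-245 and TKKK had no count of it. HuH28 had 37.7 CPM, and the ampullary lines had 83.0, 42.6 and 5.50. Mz-ChA-2 was thus without TNC although it had 6761 CPM of FN1 and was next to TGBC2TKB in SPARC.

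The proteoglycan VCAN encodes versican, a large chondroitin sulfate carrier that binds hyaluronan. It stood at 2426 CPM in HuH28, 1376 in HuCCT1, 23.1 in SNU-1079 and 0.166 in TKKK. Gallbladder lines ran from 0.210 in TGBC14TKB over a median of 25.3 to 250 in NOZ, and SNU-478, an ampullary line, had 233. The extrahepatic lines had 8.57 CPM in TFK-1, 5.90 in EGI-1, 0.196 in SNU-245 and no count in Sk-ChA-1 and SNU-1196. Every extrahepatic line thus lay under 10 CPM, a level that 8 of the 20 lines reached. TGBC2TKB, at 3.78 CPM, was low in VCAN.

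DCN encodes decorin, a small proteoglycan that binds collagen fibrils and TGF-beta. HuH28 had 49.0 CPM, TGBC2TKB 11.9 and Sk-ChA-1 3.21, and 13 lines had no count. It was the member with the lowest peak. In HuH28 the order per kb of transcript was FN1, then THBS1 at 651, THBS2 at 499, FBLN1 at 233, VCAN at 192, FBN1 at 94.1, POSTN at 53.0, DCN at 6.84, TNC at 4.93 and SPARC.

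Each member varied between lines more than most genes did. The SD of log2 CPM, with a prior count of 2, was 4.63 for VCAN, 4.29 for FN1, 4.14 for FBLN1, 3.66 for SPARC, 3.33 for TNC, 3.21 for THBS1, 3.01 for FBN1, 2.88 for THBS2, 2.39 for POSTN and 2.36 for DCN. Between 87.6% (DCN) and 99.9% (VCAN) of the genes in the site comparison had a smaller SD. The counting of reads could have shared some between overlapping genes: FN1 overlaps ATIC, SPARC overlaps CLMAT3 and THBS1 overlaps FSIP1, whose highest counts in any line were 3076, 467 and 38. The strand setting of the counting is not given in the sources used here.

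The question raised by the title of the series is that of subtypes, and the subtype label is the anatomical site. Levels were therefore compared between sites over 16615 genes with edgeR's quasi-likelihood test and Benjamini-Hochberg adjustment. Intrahepatic lines had the highest median for each member except TNC, with the medians of POSTN and DCN at or under the floor, yet no member passed in any site comparison. In the joint test of 4 sites 0 of 9 members passed (POSTN fell under the count filter), where 0.00602% of genes did, with adjusted p from 0.145 for THBS2 to 0.863 for TNC. The unadjusted p was under 0.05 for 6 of the 9, namely FN1, THBS1, THBS2, SPARC, FBN1 and VCAN, and for 10.6% of all genes. Unadjusted p under 0.05 were also seen for 6 of 9 members in the contrast of intrahepatic with the other sites (9.3% of genes), 5 in that with extrahepatic lines (9.32%), 4 for extrahepatic (6.99%), 2 for gallbladder (12.3%) and 0 for ampullary lines (5.27%).

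THBS1 was 3.96 log2 units higher (SE 0.97) in intrahepatic lines than in the mean of the other sites, with an edgeR adjusted p of 0.164. Of the 4 intrahepatic lines, 3 lay above every line of the other sites and TKKK lay below the gallbladder median. Without HuH28 the difference was 3.75, with an adjusted p of 0.412. THBS2 was 9.19 log2 units higher (SE 1.59, edgeR adjusted p 0.0858), a difference that fell to 0.99 (adjusted p 0.964) without HuH28. Leaving out TKKK or HuCCT1 instead brought THBS2 past the threshold, with edgeR adjusted p of 0.0363 and 0.0368. FBN1 was 5.16 higher (SE 1.47, adjusted p 0.195), VCAN 5.31 (SE 1.78, 0.307) and FN1 4.25 (SE 1.41, 0.303) in the same edgeR contrast, and without HuH28 these fell to 1.54, 4.30 and 2.01.

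In the contrast of intrahepatic with other lines 0.0% of genes passed in edgeR, and in that of gallbladder with other lines also 0.0%. In the latter, SPARC was 10.38 log2 units higher (SE 2.18, adjusted p 0.151) and FN1 3.98 higher (SE 1.34, adjusted p 0.264). Without TGBC2TKB the SPARC difference was 6.42, with an adjusted p of 0.234. SPARC was high in 2 of the 7 gallbladder lines, and the other 5 lay between 0.0685 and 1.09 CPM, a range shared with other sites. Extrahepatic lines had the lowest fitted VCAN, a difference of -5.81 log2 units from the other sites by edgeR (SE 2.41, adjusted p 0.649), with 0 members and 0.0% of genes passing. Ampullary lines gave 0 members of 9 and 0.00602% of genes, and the direct contrast of intrahepatic with extrahepatic lines 0 members and 0.0% of genes.

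DESeq2, run on the same counts, made calls among the members. For the joint test of sites it called 4 members (FN1, THBS1, SPARC and FBN1) and 1.7% of genes. For intrahepatic against extrahepatic lines it called 4 (FN1, THBS1, FBN1 and VCAN) and 1.7% of genes. For intrahepatic against the other sites it called 2 (THBS1 and FBN1) and 1.52% of genes, and for gallbladder against the other sites 2 (FN1 and SPARC) and 2.28%. For ampullary lines it called 0 members and 0.782% of genes, and for extrahepatic lines 0 members and 1.1%. With limma-voom no member and at most 10 genes were called in any of these. Whether a member is said to differ by site therefore depended on the test. A member given no adjusted p counts as not called. THBS2 had an adjusted p in 27 of 28 alternatives, both in the joint test and for intrahepatic against the other sites. Its absence from the DESeq2 calls may therefore mean that it was not evaluated.

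**Figure D3:**
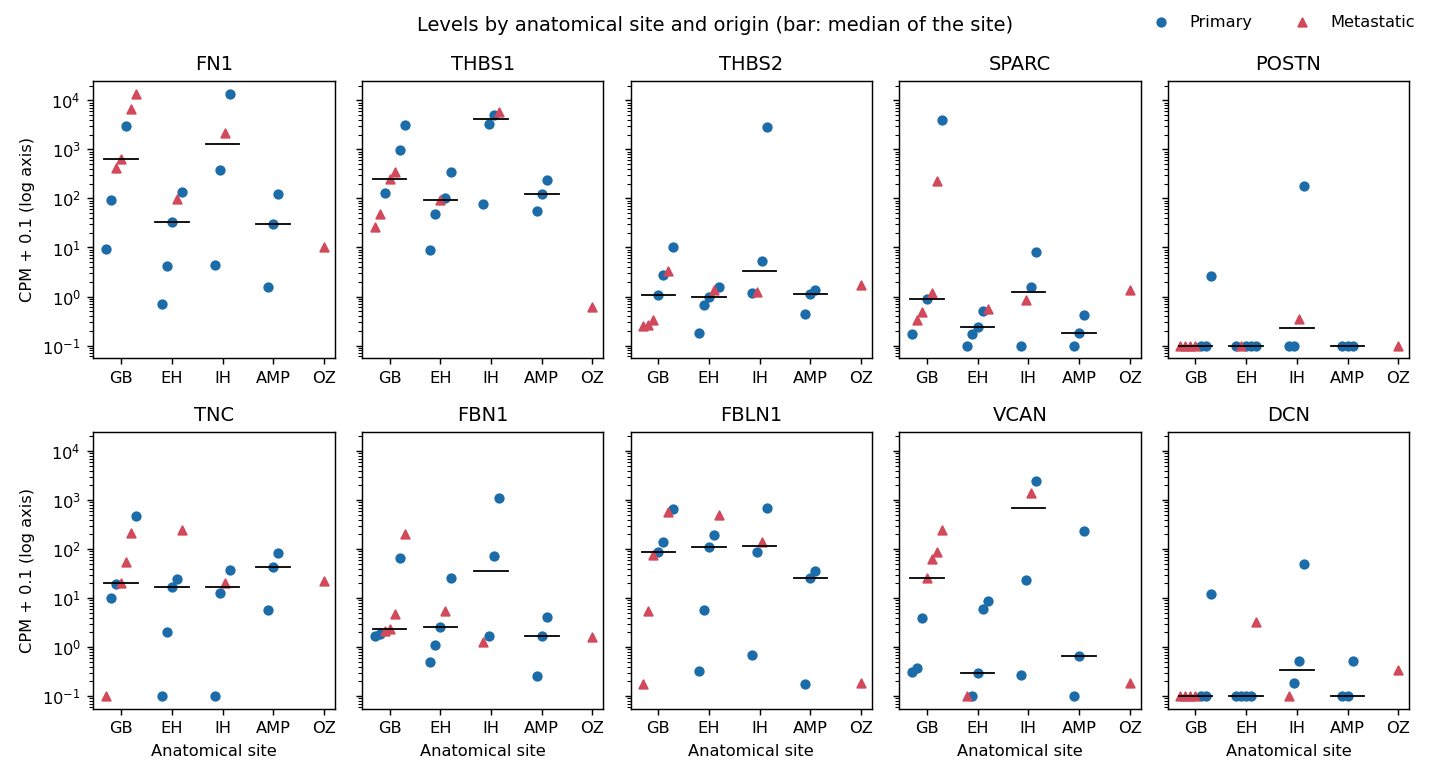
CPM + 0.1 on a log axis for each member by site (GB gallbladder, EH extrahepatic, IH intrahepatic, AMP ampullary, and OZ on its own), 1 point per line, circles for primary and triangles for metastatic origin, with the bar at the median of the site. Points of all sites overlap for each member, and single lines stand far above their site for THBS2, SPARC, POSTN and DCN.

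By origin, 0 of 8 tested members passed in edgeR (POSTN and DCN fell under the filter), as did 0.0% of 14843 genes, with adjusted p from 0.458 for THBS2 to 0.991 for THBS1. One member, THBS2, had an unadjusted p under 0.05, as did 7.93% of genes. DESeq2 called 0 members and 0.701% of genes, and limma-voom 0 members and 0 genes. A member given no adjusted p counts as not called. Over the 27 alternatives for origin, THBS1, THBS2, FBN1 and VCAN had an adjusted p in 26 and SPARC in 21. The 0 from DESeq2 may therefore include members that it did not evaluate. The fitted THBS2 difference of -7.66 log2 units (SE 2.54) was -0.93 without HuH28, a primary line. FN1 ran from 10.2 over a median of 652 to 13692 CPM in the 7 metastatic lines and from 0.608 over 32.3 to 13720 in the 13 primary lines, and the fitted difference was 1.33 log2 units (SE 1.54, edgeR adjusted p 0.877). Without HuH28 it was 3.42, with an adjusted p of 0.492, and without OCUG-1 0.32, with an adjusted p of 0.986. VCAN had medians of 63.0 CPM in metastatic and 0.554 in primary lines, with a fitted difference of 0.31 (SE 1.86, adjusted p 0.987), and both origins reached above 1000 CPM. The ranges of metastatic and primary lines overlapped for every member.

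A further axis that does not use the members is an epithelial score, the mean over 20 epithelial genes such as EPCAM and CDH1 of log2 CPM centred on each gene's mean. HuH28 had the lowest score, -5.59, and SNU-245 the highest, 2.70. The scores left a gap in which no line lay, with 8 lines at -1.28 or less and 12 at 1.53 or more. A slope below 0 means that the fitted level rises towards the less epithelial end, which need not hold for each line there. With edgeR over 16029 genes, 4 of 8 tested members were called lower with rising score and 0 higher, where 3.33% of genes were called lower, 3.24% higher and 6.56% in either direction. The called members were FN1, THBS2, FBN1 and SPARC. The median slope was -0.61 over the tested members and 0.0 over all genes. Earlier results of these data already show this axis, so these counts are no independent evidence.

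FN1 fell by 0.91 on the log2 scale per unit of score (SE 0.23, edgeR adjusted p 0.0201). Without HuH28 the slope was -0.93 and the adjusted p 0.0612. The 8 lines below 0 had 96.0 to 13720 CPM of FN1 and the 12 lines above 0 had 0.608 to 2163, overlapping through HuCCT1, EGI-1 and SNU-478. Within the 8 lines Pearson's r of log2 FN1 with the score was -0.52 (Spearman's rho -0.52), and within the 12 lines it was -0.51 (rho -0.42). Within the 6 KCLB lines r was -0.66 and within the 6 RIKEN lines -0.56, the repository standing in for a batch that the labels do not give. Of the KCLB lines only SNU-1079 (-2.23) scored below 0, and of the RIKEN lines only G415 (-4.65) and TGBC2TKB (-1.28). These few lines weigh heavily in each r within a repository. All these correlations are descriptions over lines.

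THBS2 fell by 1.23 per unit (SE 0.17, adjusted p 0.000145 by edgeR), but without HuH28 the slope was -0.25 and the adjusted p 0.511. Of the other lines below 0, TGBC2TKB had 10.3 CPM, SNU-1079 5.18, OCUG-1 3.26, Sk-ChA-1 1.27, Mz-ChA-2 0.233, NOZ 0.157 and G415 0.145. The lines above 0 ran from 0.0797 CPM in EGI-1 to 2.59 and so overlapped these values. EGI-1 (1 count), G415 and NOZ (2 each) and Mz-ChA-2 (3) were at or under the floor, where levels carry no order. For THBS2 r with the score was -0.80 within the KCLB lines and 0.33 within the RIKEN lines. The former rests largely on SNU-1079, the KCLB line below 0. FBN1 fell by 0.68 per unit (SE 0.17, edgeR adjusted p 0.0173), and by 0.42 without HuH28 (adjusted p 0.253). Within the 12 lines above 0 its r was 0.06 (rho 0.15), with TKKK and TFK-1 high at scores of 2.05 and 2.07. SPARC fell by 2.65 per unit (SE 0.79, adjusted p 0.048 by edgeR), was at or below 1.25 CPM in each line above 0, and within the 8 lines below 0 had an r of 0.16 (rho 0.05). Its adjusted p rose to between 0.0671 and 0.087 when any 1 of the 12 lines above 0 was left out, and without TGBC2TKB its slope was -1.27 (adjusted p 0.00672).

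The other tested members did not pass in edgeR: TNC had a slope of -0.53 (adjusted p 0.339), VCAN -0.36 (0.464), THBS1 -0.28 (0.49) and FBLN1 -0.25 (0.566). VCAN had an r of -0.69 (rho -0.71) within the 8 lines and -0.52 (rho -0.40) within the 12. TNC went with the score in opposite ways on either side of the gap, with r of 0.35 (rho 0.57) in the 8 lines and -0.63 (rho -0.51) in the 12. With repository as a covariate, the DSMZ and Zurich University lines being pooled, 0 members and 2.96% of genes were called in either direction. With site as a covariate 0 members and 1.05% of genes were called. Without HuH28 SPARC was the member called, beside 2.9% of genes, and without HuH28 and TGBC2TKB SPARC again, beside 2.13%. Of the lines then left, Mz-ChA-2 had 224 CPM of SPARC and the next, SNU-1079, 1.48. Over all lines limma-voom did not call SPARC (adjusted p 0.23).

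**Figure D4:**
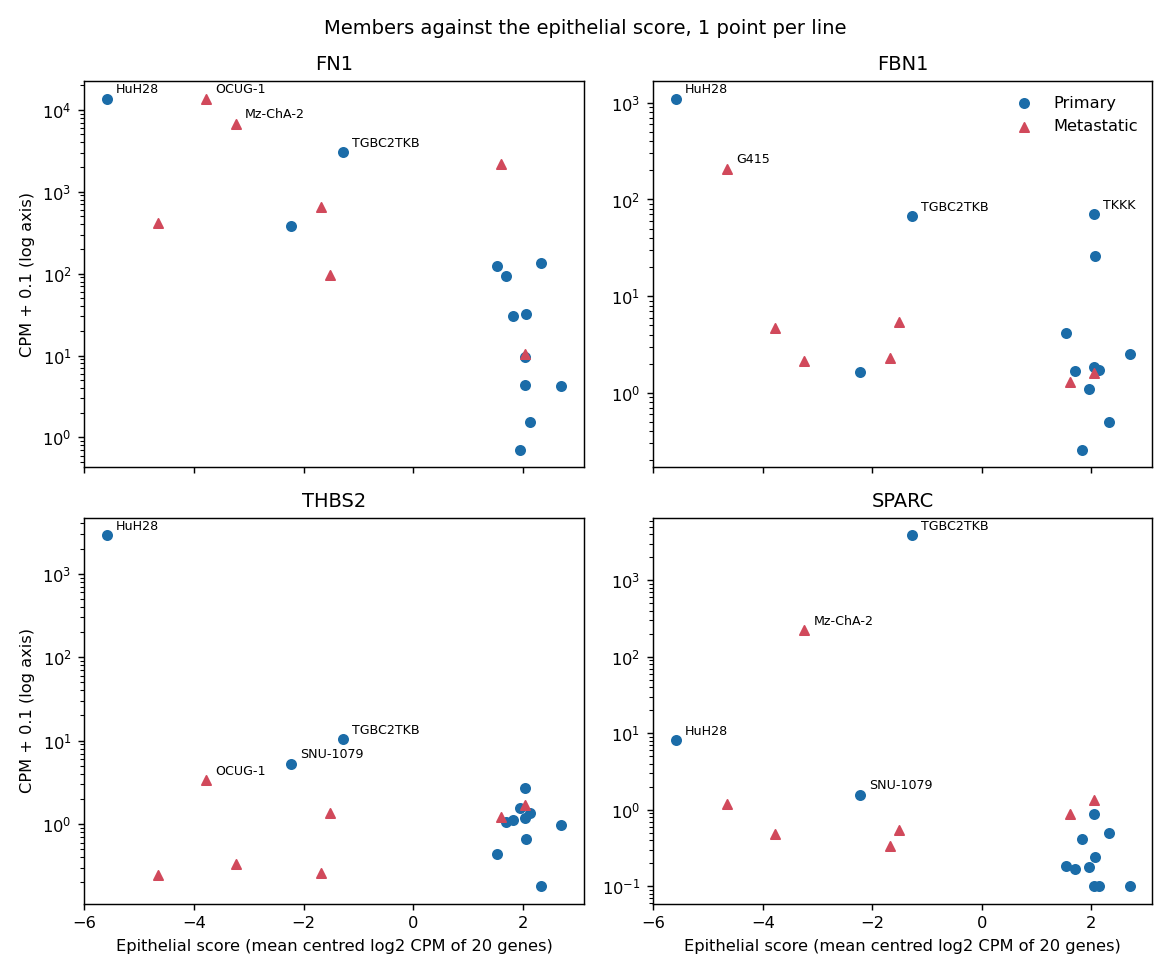
Level (CPM + 0.1, log axis) of the 4 called members against the epithelial score, 1 point per line, circles primary and triangles metastatic. FN1 falls across the whole range, while THBS2 and SPARC lie near 1 CPM or below apart from the few named lines.

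Markers of other cell types were high in some of the lines rich in members and low in others. The summed CPM of 12 fibroblast genes was 10200 in HuH28 (11 genes at 1 CPM or more), 4140 in SNU-1079 (5 genes), 2580 in TGBC2TKB (10 genes) and 4.56 to 211 in the other 17 lines. The collagen gene COL1A1 made up most of each of these 3 sums, with 7970 CPM in HuH28, 4090 in SNU-1079 and 2020 in TGBC2TKB, and THY1 had no count in SNU-1079. OCUG-1, HuCCT1 and Mz-ChA-2, with member shares from 0.8% to 1.38%, had fibroblast sums of 50.4, 100.0 and 154 CPM, and TGBC14TKB, with a share of 0.0877%, had 211. In HuH28 the fibroblast markers THY1, PDGFRA and FAP stood at 1110, 133 and 128 CPM while the collagen COL1A2 was at 0.685, and the epithelial EPCAM was at 0.257 and KRT8 at 95.4. Of 10 mesenchymal regulators and cytoskeletal genes, 9 were at 1 CPM or more in HuH28 (summed 5120 CPM), 7 in OCUG-1 (2430), in TGBC2TKB (1960) and in Mz-ChA-2 (813), 6 in SNU-1079 (2820), and 2 in SNU-245 (9.89). HuCCT1, with a member share of 0.961%, had 6 of them at 1 CPM or more (432). Sk-ChA-1 and NOZ, with shares of 0.0946% and 0.109%, had 5 each (1770 and 1010). SNU-308 and TGBC18TKB also had 6 (45.4 and 47.4). The part of these cell-type genes in the members' levels was not tested. Summed endothelial markers were highest in G415 and summed immune markers in SNU-245, at 3110 CPM, and in HuH28 they were 57.2 and 203 CPM. Nearly all of the endothelial sum in HuH28 was KDR, at 55.3 CPM where the next line had 1.32, and most of its immune sum was CD68, at 193 CPM. CDH5, TIE1, CD3E, CD163 and NKG7 had no count there.

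Over the 45 pairs of members the median Pearson r of log2 CPM across 20 lines was 0.36 (range 0.05 to 0.90), and the median over all pairs of tested genes was 0.0. By rank the median rho was 0.34. An r of 0.5 or more was seen in 12 of the 45 pairs and in 2.66% of all gene pairs. Without HuH28 the median r was 0.27, and without HuH28 and TGBC2TKB 0.09. The closest pair by r was THBS2 with POSTN, at 0.90, but its rho was 0.47, and r was 0.52 without HuH28 and 0.06 without HuH28 and TGBC2TKB. The closest by rank was FN1 with VCAN, at a rho of 0.81 and an r of 0.79, which stayed at 0.74 without HuH28. The pair THBS1 and THBS2 had an r of 0.45, and TNC had its r with FBN1 and with FBLN1 at 0.05. Points share the library kit, and lines at 0 tie for POSTN and DCN.

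**Figure D5:**
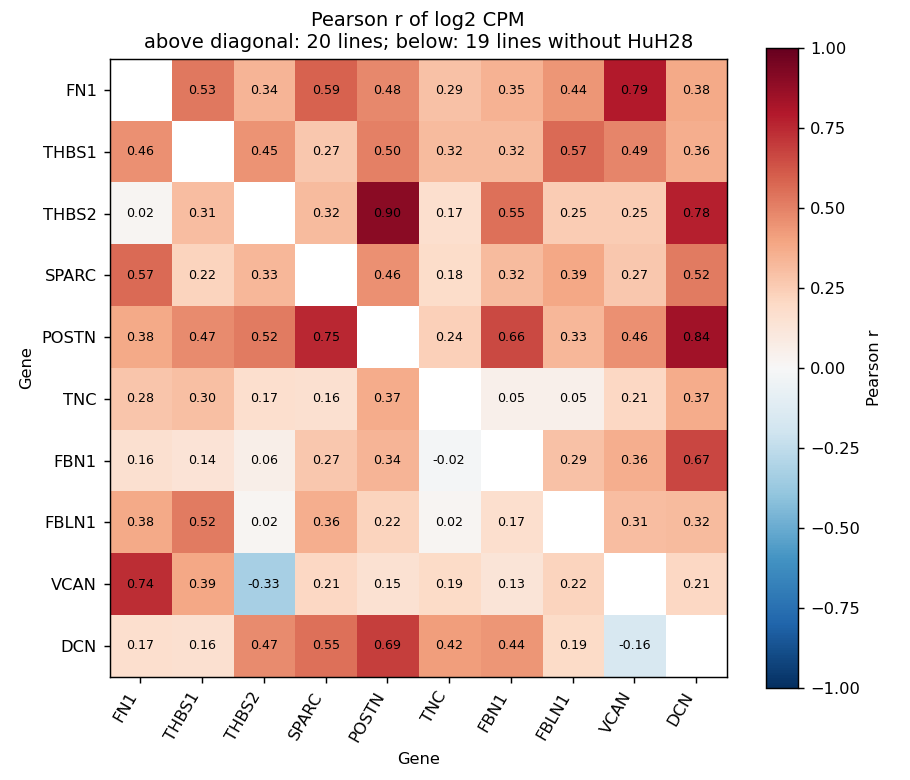
Pearson r of log2 CPM for each pair of members, over 20 lines above the diagonal and over 19 lines without HuH28 below it. FN1 with VCAN stays high on both sides (0.79 and 0.74), while THBS2 with DCN goes from 0.78 to 0.47 and THBS2 with VCAN from 0.25 to -0.33.

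The genes most like each member over the 20 lines were taken by Pearson's r of log2 CPM among genes at 1 CPM or more in at least 3 lines. For FN1 they were RBMS3 (r 0.87), ADAMTS12 (0.86) and SGTB (0.85), with r of 0.83 to 0.85 when HuH28 was left out. For THBS1 they were CSF1 (0.83, rho 0.84), UGCG (0.80) and FLRT2 (0.78). VCAN had LOX (0.81), a collagen cross-linking enzyme, C5orf46 (0.80) and FN1 (0.79). TNC had MARVELD1 (0.85), the metallothionein MT2A (0.82) and SNPH (0.76), and FBLN1 had LRRC8D (0.79) and BLTP3A (0.72).

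For the other members each r is followed by its value without the line where the member was highest, HuH28 or, for SPARC, TGBC2TKB. POSTN went with HAPLN1, the link protein of hyaluronan (0.96, then 0.96), COL3A1 (0.94, then 0.70) and LHX8 (0.94, then 0.67). Without HuH28 POSTN had counts in TGBC2TKB (30) and HuCCT1 (3) alone, so its second values rest mainly on TGBC2TKB. By rank, its rho with HAPLN1 over all lines was 0.73. THBS2 went with LHX8 (0.93, then 0.67), CNTN5 (0.91, then 0.72) and LOC101448202 (0.87, then 0.75). DCN went with IGFBP5 (0.88, then 0.76), THY1 (0.85, then 0.70) and SULF1 (0.84, then 0.66). FBN1 went with SLC26A4 (0.83, then 0.82), PRKG1 (0.80, then 0.74) and SPANXC (0.79, then 0.68). SPARC went with DSCR8 (0.88, then 0.80), CCDC144NL-AS1 (0.85, then 0.74) and LINC01029 (0.84, then 0.70), all highest in TGBC2TKB.

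Other genes of the matrix were counted from lists, beside the 3.33% of genes that edgeR called lower with the epithelial score and the 3.24% called higher. Of 33 other glycoproteins tested, 7 were called lower and 0 higher (median slope -0.13), led by MFAP4 (-0.74, adjusted p 0.000258), CCN2 (-0.65, 0.00153), HMCN1 (-1.56, 0.00354) and CCN1 (-0.70, 0.00392). Of 18 other proteoglycans, 7 were called lower and 0 higher (median -0.46). BGN, which encodes biglycan, the nearest relative of decorin, reached 1021 CPM in HuH28 and had a slope of -1.51 (SE 0.20, edgeR adjusted p 0.000109), and SRGN, SPOCK1 and GPC3 had slopes of -1.24, -1.11 and -1.48. The 3 fibrillar collagens tested, COL5A2, COL1A1 and COL5A1, were all called lower (slopes -0.74, -0.84 and -1.01).

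Receptors of these ligands included 5 called lower and 1 called higher of 13 (median slope -0.15). ITGA5, the fibronectin receptor chain, reached 1583 CPM in HuH28 and had a slope of -0.71 (SE 0.11, edgeR adjusted p 0.000669). ITGB3, ITGA4 and ITGAV had slopes of -0.95, -0.78 and -0.29. Of 17 genes that build glycosaminoglycan chains 1 was called lower, CHSY1 (-0.19, adjusted p 0.0499), which extends chondroitin chains. Of 13 matrix proteases and inhibitors 2 were called lower, MMP2 (-2.36, adjusted p 0.0101) and MMP14 (-0.39, adjusted p 0.0399). Of 17 TGF-beta pathway genes 1 was called lower, TGFB1 (-0.31, adjusted p 0.0271).

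As for the members, many of these calls were lost without HuH28, where edgeR called 179 of 15887 genes lower and 281 higher. Counts called lower were then 3 of 31 other glycoproteins, 4 of 17 proteoglycans, 0 of 3 fibrillar collagens, 2 of 12 receptors, 0 of 17 chain builders, 0 of 13 proteases and inhibitors and 1 of 17 TGF-beta genes, ACVRL1, and no gene of the lists was called higher. Of the genes named, CCN1, CCN2, BGN, SRGN, GPC3, ITGA5 and ITGB3 passed without HuH28. MFAP4, at 24.1 CPM in HuH28 with a median of 0.254 over the lines, was then no longer among the tested genes. The slope of ITGA4 was 0.66 without HuH28 (edgeR adjusted p 0.172) and that of COL5A2 0.04 (0.947), both with the sign turned. COL1A1 kept a slope of -0.82 but had an adjusted p of 0.172.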

How the data were processed

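Poly(A) RNA of 20 lines was sequenced with a stranded kit, per the labels' protocols. The authors deposited raw counts per RefSeq entry, in whole numbers and not normalized. Per the submitters' processing notes, Trimmomatic, TopHat2 2.0.8, Picard 1.69, featureCounts and build hg19 (GRCh37) were used; no source used here names the strand setting or the annotation release. Symbols came from a RefSeq gene table for 23204 of 24222 entries and from GENCODE 29 for 348; lengths for CPM per kb are GENCODE 29 transcripts matched by RefSeq identifier.

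Fits covered all genes and used the two-sided robust quasi-likelihood test of edgeR 4.0.16 (R 4.3.3) after TMM scaling and filterByExpr, adjusted p under 0.05 being called; fits were tested on simulated data. Repository stood in for batch, and as a covariate it had the DSMZ and Zurich University lines pooled. Lines are separate cultures with 1 library each. Intervals are exact Poisson 95%. Alternatives were RLE scaling, no count filter, DESeq2 1.42.0, limma-voom (limma 3.58.1), covariates, primary lines only, either site for OZ, each line left out, and, chosen after seeing the data, HuH28 and TGBC2TKB left out, and gene lists without HuH28. The members and lists were chosen with earlier results of these data known. Named genes are the members, the 3 most correlated with each, and up to 4 called genes of smallest p per list. Some genes that met this rule or stand in a list are not reported here.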

Additional observations from a re-analysis of the deposited data

Results flagged for a closer look

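Each member was checked in each site and origin with 4 to 10 lines for a line whose gap to its nearest neighbour took up most of the range of log2 CPM. Of the groups checked, 10 of 40 were marked. A chance rate of about 1 in 20 would need independent values without ties, and it was not measured here. Most lines had no count of POSTN or DCN, so a single line with counts is readily marked for these members. The site and origin groups also share lines. The number marked can therefore not be compared with chance.

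THBS1 in TKKK, 76.8 CPM, lay far below the other intrahepatic lines, the nearest of which had 3240. SPARC in Mz-ChA-2, 224 CPM, stood above the other metastatic lines, which reached 1.25. FBN1 in G415, 207 CPM, stood above the other metastatic lines, which reached 5.37. TNC in Mz-ChA-2 was at 0 CPM, where the next metastatic line had 20.4.

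POSTN was set apart in HuH28 at 179 CPM among intrahepatic lines (next 0.256), in TGBC2TKB at 2.47 CPM among gallbladder lines, all others being at 0, and in HuCCT1 at 0.256 CPM among metastatic lines, all others being at 0. The HuCCT1 value is 3 counts, at the floor. DCN was set apart in TGBC2TKB at 11.9 CPM among gallbladder lines (others at 0) and in Sk-ChA-1 at 3.21 CPM among extrahepatic lines (others at 0) and among metastatic lines (next 0.249).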

How the results depend on the processing

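Calls by site depended on the test. With DESeq2 members called rose from 0 to 2 for gallbladder and 2 for intrahepatic against the other sites, and from 0 to 4 both for intrahepatic against extrahepatic lines and for all 4 sites. With 1 line left out in turn, the count for intrahepatic lines ran from 0 to 1 (THBS2, without HuCCT1 or TKKK), and for the other site comparisons and origin it was 0. Along the epithelial score the 4 called members became 0 with repository as covariate, 0 with site as covariate and 1 without HuH28 and TGBC2TKB, while calls over all genes went from 1052 to 492, 174 and 334, and members called ran from 1 (without HuH28) to 5 (without G415, when DCN passed the filter) with 1 line left out. FN1, FBN1 and THBS2 were called in 23, 23 and 22 of 27 alternatives and SPARC in 12, while limma-voom called 3 members, FN1, FBN1 and VCAN. Most of these alternatives left out 1 line and kept HuH28, so the tallies are no measure of robustness. FN1, FBN1 and THBS2 were not called in any alternative without HuH28 or with a covariate. The slope of THBS1 turned to 0.04 with site as covariate. That of VCAN turned to 0.15 without HuH28, was -0.77 without HuCCT1 and 0.11 without HuH28 and TGBC2TKB, and with limma-voom -1.27 (adjusted p 0.0173). The median r of member pairs was 0.09 without HuH28 and TGBC2TKB and 0.27 to 0.43 with 1 line left out. The causes were not tested. Counts of lines at 1 CPM or more kept within 1.5 times under the other scalings. Levels near the floor of 3 counts carry no order. No paired analysis was possible because the replicate numbers follow deposition order only.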
